A study of Rattus norvegicus with 9 samples.

Results

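The choroid plexus genes described here are 10 genes that mark the epithelium of the choroid plexus: Ttr, Kl, Folr1, Clic6, Aqp1, Kcnj13, Otx2, Slc4a5, Enpp2 and Prlr. Each was taken as the locus of the deposited gene table that carries its name on the same strand, and, where a name had several loci, the one with the highest mean count, which gave 10 loci of 114601. The rats were 3 homozygous (Lrap-/-) and 3 heterozygous (Lrap-/+) for loss of 618 bp of the long non-coding RNA gene Lrap, cut out with CRISPR/Cas9, on a Crl:WI background (strain Crl:WI-Lrapem1Geh), and 3 wild-type Wistar rats from Charles River. All 9 were untreated, alcohol-naive males, and total RNA came from the whole brain. The deletion is constitutive and present in every tissue, only 1 edited line was used, and the sources used here do not say whether the wild types were littermates or which libraries shared a lane or a day.

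The choroid plexus is a folded sheet of epithelium and vessels inside the brain ventricles. Its epithelium secretes cerebrospinal fluid and carries hormones and vitamins between blood and that fluid. It is a small share of the brain, and Ttr is so abundant in it that it is a standard marker of choroid plexus RNA in brain samples. In bulk RNA, fewer choroid plexus cells and less RNA per cell cannot be told apart.

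The libraries held 27489383 to 46975919 expected counts, and every member had at least 53 counts in every library. The isoform of Lrap whose exon holds a gap of 618 bases in its sister isoform had 0.244, 0.387 and 0.399 CPM in homozygous rats 1 to 3, against 1, 0.998 and 1.11 CPM in the heterozygotes and 2.57, 1.88 and 2.36 CPM in the wild types, which follows the labels. The sister isoform, without those bases, did not follow them. It had 4.56, 2.85 and 3.68 CPM in homozygous, 3.53, 2.8 and 3.12 CPM in heterozygous and 2.76, 2.69 and 3.76 CPM in wild-type rats. CPM are counts scaled to a common library total after TMM normalization. The libraries fell into 2 patterns of spike-in proportions (r of at least 0.992 within and at most 0.936 between), with the 3 homozygous rats and wild-type rat 2 in one and the 3 heterozygous rats and wild-type rats 1 and 3 in the other. Wild-type rat 2 also had 40.4% of its counts on mitochondrial genes, against 14.8% to 28.1% in the other 8 libraries.

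The start regions of 3 members are shown, each a window that holds TAATC. Start regions were looked at because the members moved together across the libraries, and because one of them, Otx2, encodes a homeodomain transcription factor whose family binds sites with a TAATC core. RefSeq windows of 300 bases (250 before and 50 after the start, build GRCr8, sense strand of the gene) were given for 6 of the 10 members, with a pair for Prlr. The capitals mark TAATC, or its reverse complement GATTA, and TATAAA. The Ttr window is chr18:12218508-12218807 on the plus strand, the Kcnj13 window chr9:95518937-95519236 on the minus strand and the Kl window chr12:5325753-5326052 on the plus strand.
Ttr: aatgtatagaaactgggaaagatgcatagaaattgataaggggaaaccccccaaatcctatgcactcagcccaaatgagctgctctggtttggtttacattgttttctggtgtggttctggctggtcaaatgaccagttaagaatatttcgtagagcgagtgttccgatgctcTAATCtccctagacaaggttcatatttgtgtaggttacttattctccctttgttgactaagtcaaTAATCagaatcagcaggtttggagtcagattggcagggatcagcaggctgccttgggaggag
Kcnj13: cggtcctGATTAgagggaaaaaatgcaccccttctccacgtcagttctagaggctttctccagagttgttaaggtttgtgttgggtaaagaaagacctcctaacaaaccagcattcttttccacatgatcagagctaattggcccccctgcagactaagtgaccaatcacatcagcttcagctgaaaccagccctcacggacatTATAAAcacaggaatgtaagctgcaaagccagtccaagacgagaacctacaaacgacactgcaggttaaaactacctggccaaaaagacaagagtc
Kl: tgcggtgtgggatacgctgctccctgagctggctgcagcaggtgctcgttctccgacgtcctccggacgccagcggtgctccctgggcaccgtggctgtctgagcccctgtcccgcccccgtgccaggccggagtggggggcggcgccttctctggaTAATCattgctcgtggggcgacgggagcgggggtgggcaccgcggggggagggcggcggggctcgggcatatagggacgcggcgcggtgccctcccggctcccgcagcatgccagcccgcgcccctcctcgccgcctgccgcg
TAATC on either strand was found in 4 of the 7 windows of members, against 22.9% of 33469 windows of all genes. The 4 are the 3 shown and 1 window of Prlr, whereas the windows of Aqp1, Slc4a5 and the other Prlr start, not shown, hold none. The longer TAATCC, which contains it, was in 0 of the 7, against 7.17%. TATAAA was in 2 of the 7, against 14.2%, and lay 46 bases before the start in Kcnj13 and 30 bases before it in Aqp1. CCAAT was in 3 of the 7, against 37.5%. These motifs were chosen after the letters were seen, and a match is a description of the letters, not of a bound site. No window was at hand for Folr1, Clic6, Otx2 and Enpp2. The assembled Kl isoform with most of its TPM (68.81% to 94.75% across the 9 rats) starts within the locus, at base 973179 in rn6. The RefSeq window of Kl need not be the start of that isoform.

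The members lie on 9 chromosomes of the rn6 assembly. Ttr is at chr18:15532963-15540177 (minus strand), Enpp2 at chr7:94479882-94541811 (minus), Kl at chr12:943006-987551 (plus), Kcnj13 at chr9:94487224-94495333 (minus) and Clic6 at chr11:32655616-32699382 (plus). Folr1 is at chr1:166934460-166944491 (minus), Aqp1 at chr4:85551503-85563683 (plus), Slc4a5 at chr4:114918488-115003634 (plus), Otx2 at chr15:25500514-25510636 (minus) and Prlr at chr2:60302397-60325546 (plus). Aqp1 and Slc4a5 share a chromosome but are far apart, and the Ttr locus has the opposite strand in the newer build. Ttr, Clic6, Aqp1 and Kcnj13 were each assembled as 1 isoform, and the others as 2 to 4. Kcnj13 lies within Gigyf2, a gene of the other strand at 60.6 to 98.1 CPM, with which it shares 0 exon bases.

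Compared per length, in TPM, Ttr was by far the most abundant member. Ttr encodes transthyretin, the thyroxine carrier that the choroid plexus secretes into cerebrospinal fluid, and it averaged 288 ± 124 TPM over the 9 libraries (SD). Enpp2, which encodes autotaxin, the secreted enzyme that makes lysophosphatidic acid and is also made by oligodendrocytes, followed at 38.8 ± 20.2 TPM. Ttr exceeded Enpp2, and Enpp2 exceeded Kl, in 9 of 9 libraries.

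The other members lay between 0.523 and 3.47 TPM. Kl, the anti-ageing hormone co-receptor Klotho, averaged 3.47 ± 2.12 TPM and Kcnj13, the inward-rectifier potassium channel of the apical membrane, 3.29 ± 2.12 TPM, and Kl was the higher in 7 of 9 libraries. Clic6, a chloride intracellular channel protein, and Folr1, the folate receptor that moves folate into cerebrospinal fluid, averaged 2.48 ± 1.38 and 2.45 ± 1.21 TPM, and their order held in only 4 of 9 libraries. Aqp1, the water channel of the apical membrane, was at 2.01 ± 0.859 TPM, below Folr1 in 6 of 9 libraries. Slc4a5, an electrogenic sodium bicarbonate cotransporter, was at 1.61 ± 0.796 TPM, Otx2 at 0.708 ± 0.323 TPM and Prlr, the prolactin receptor, at 0.523 ± 0.359 TPM (SD over 9 libraries). The pairs Kl and Kcnj13, Clic6 and Folr1, and Folr1 and Aqp1 therefore changed places between libraries, and so, in 1 of 9 libraries each, did Aqp1 and Slc4a5, and Otx2 and Prlr.

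Within each gene, levels are given from here on in CPM. Ttr, the secreted thyroxine carrier, had 205, 325 and 356 CPM in homozygous rats 1 to 3, 225, 288 and 366 CPM in the heterozygotes and 176, 458 and 314 CPM in wild-type rats. The lowest and the highest library were both wild type, and the 3 genotypes overlapped. Enpp2 had 94.8, 113 and 155 CPM in homozygous, 97, 128 and 136 CPM in heterozygous and 88.3, 219 and 174 CPM in wild-type rats. Enpp2 thus had the same extremes as Ttr, wild-type rats 1 and 2.

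Kl, the Klotho co-receptor, had 12.3, 18.3 and 21.3 CPM in homozygous, 13.6, 17.7 and 21.6 CPM in heterozygous and 9.81, 36.5 and 25.2 CPM in wild-type rats. Folr1, the folate receptor, had 2.34, 4.75 and 5.89 CPM in homozygous, 4.33, 4.27 and 6.78 CPM in heterozygous and 2.73, 8.38 and 5.02 CPM in wild-type rats. Prlr, the prolactin receptor, had 4.8, 5.99 and 7.75 CPM in homozygous, 4.57, 5.13 and 6.54 CPM in heterozygous and 4.77, 14.3 and 6.84 CPM in wild-type rats. Wild-type rat 2 was the highest library for these 3 receptors, whereas the lowest was wild-type rat 1 for Kl, homozygous rat 1 for Folr1 and heterozygous rat 1 for Prlr, and the genotypes overlapped for each.

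Aqp1, the water channel, had 6.74, 11.5 and 12.1 CPM in homozygous, 6.72, 7.27 and 11.6 CPM in heterozygous and 6.65, 15.6 and 8.64 CPM in wild-type rats. Kcnj13, the potassium channel, had 3.97, 5.69 and 6.72 CPM in homozygous, 4.18, 6.14 and 7.28 CPM in heterozygous and 4.2, 13.9 and 8.09 CPM in wild-type rats. For both genes wild-type rat 2 stood above the other 8 libraries. Slc4a5, the bicarbonate cotransporter, had 9.21, 12.1 and 12.8 CPM in homozygous, 8.84, 11.2 and 14.4 CPM in heterozygous and 7.98, 20.9 and 15.7 CPM in wild-type rats. Clic6 had 12, 12.7 and 17.3 CPM in homozygous, 11.4, 14.1 and 18.3 CPM in heterozygous and 11.1, 30.3 and 18.6 CPM in wild-type rats. In these 4 genes of ion and water movement wild-type rat 2 was the highest library and the 3 rats numbered 1 were the lowest of their genotypes, so that every genotype overlapped the others.

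Otx2, the transcription factor that the choroid plexus needs to form, was the exception. It had 2.34, 2.98 and 3.46 CPM in homozygous, 2.34, 4.61 and 4.79 CPM in heterozygous and 1.66, 3.48 and 2.92 CPM in wild-type rats. Its highest libraries were heterozygous rats 3 and 2, followed by wild-type rat 2, yet the genotypes still overlapped.

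**Figure D1:**
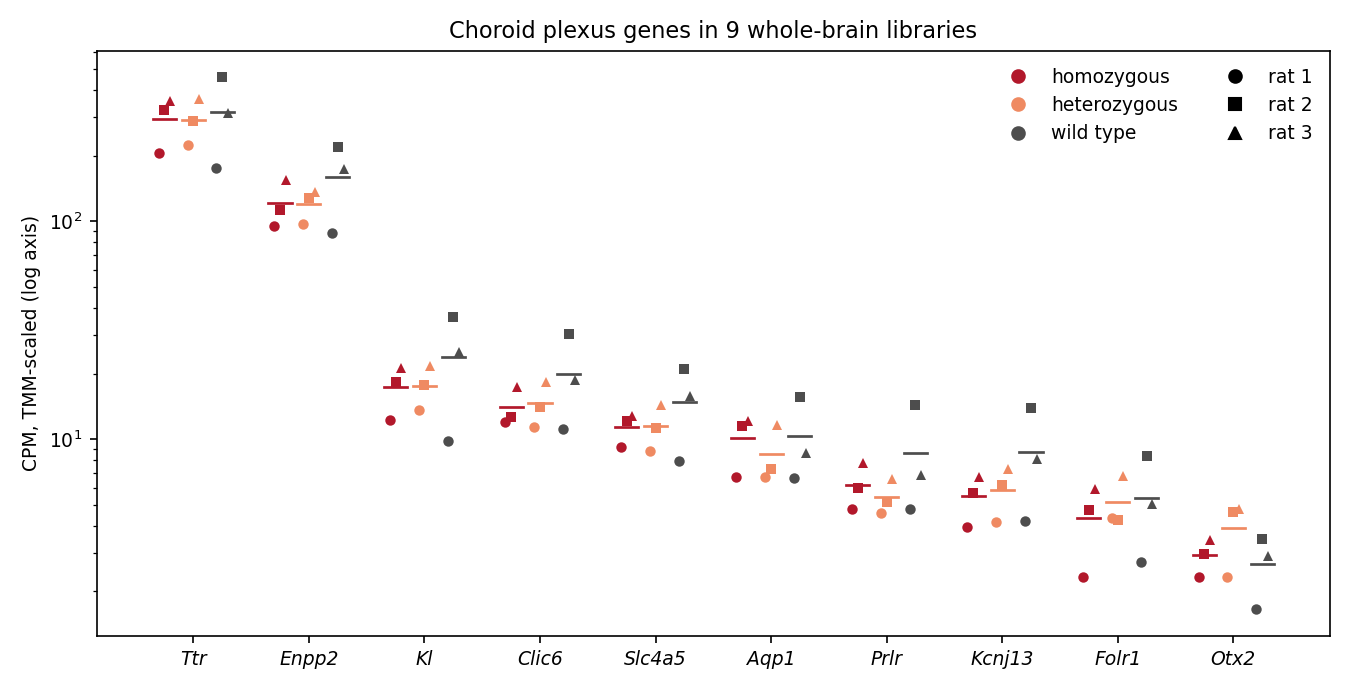
CPM (log axis) of each of the 10 genes in the 9 libraries, ordered by mean level, with 3 rats per genotype (circle, square and triangle for rats 1, 2 and 3) and a bar at the genotype mean. The wild-type square, rat 2, is the highest point for 9 of the 10 genes, and the circles lie at the bottom of nearly every group.

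Wild-type rat 2 was the highest library for 9 of 10 members, and stood at 1.18 (Otx2) to 2.57 (Prlr) times the median of the other 8 libraries. Wild-type rat 1 was the lowest for 7 members, homozygous rat 1 for 2 and heterozygous rat 1 for 1. The library numbered 1 was the lowest of its genotype in 29 of the 30 combinations of gene and genotype, the exception being Folr1 in heterozygous rats. Because the members moved together (median r of 0.88 over their pairs), these counts are not independent observations. The shares of all tested loci with the same highest or lowest library were not counted. No label ties rats of the same number to a litter, a day or a lane.

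The fold between a member's highest and lowest library was 2.34 (Aqp1) to 3.72 (Kl). The SD of log2(CPM + 0.5) over the 9 libraries had a median of 0.45 among the members, against 0.25 among all 39057 tested loci, of which 90.7% lay below the members' median. Genotype accounted for 0.123% (Ttr) to 24.4% (Otx2) of the sum of squares over the libraries, with a median of 12.8% among the members and 21% among all tested loci. With 3 groups of 3, a gene with no relation to genotype has an expected share of 25%.

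**Figure D2:**
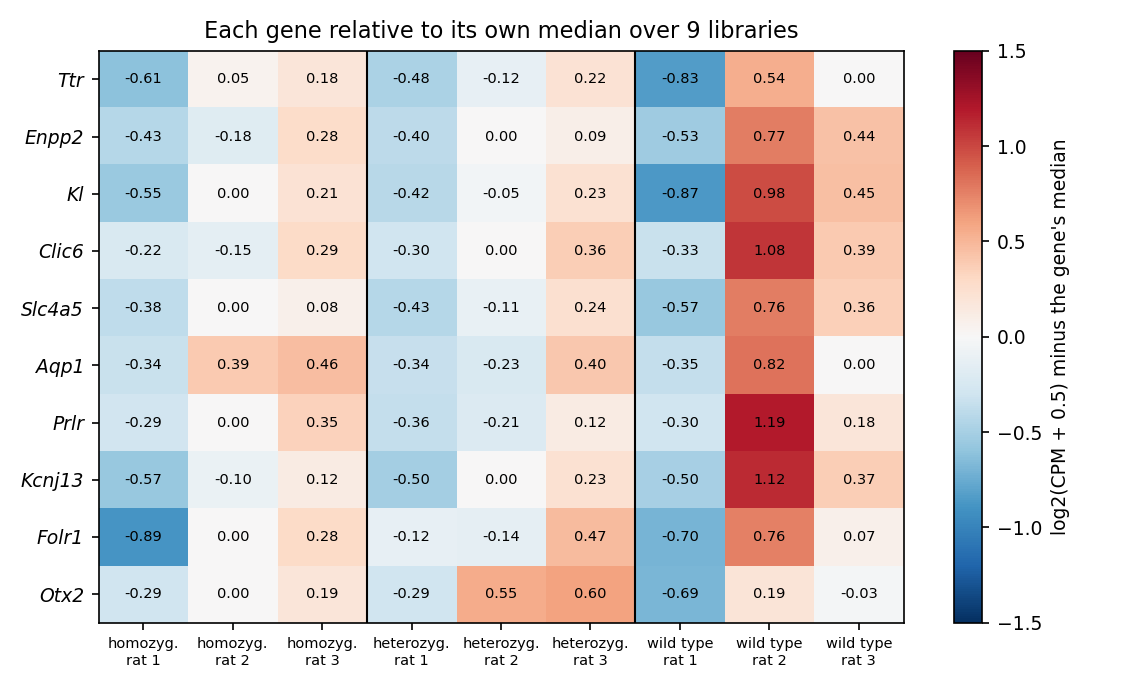
Log2(CPM + 0.5) of each gene (rows) in each library (columns, 3 per genotype) minus that gene's median over the 9 libraries. The column of wild-type rat 2 is high in every row, from 0.19 for Otx2 to 1.19 for Prlr, the columns of the number 1 rats are low in every row, and the row of Otx2 differs in heterozygous rats 2 and 3, at 0.55 and 0.60.

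A first test asked whether a member differed among the 3 genotypes in any way. It called 0 of 10 members at an adjusted p under 0.05, and 0 at an unadjusted p under 0.05 (edgeR quasi-likelihood, adjusted p = 0.94 to 1 over all tested loci). Of all tested loci, 0.0102% were called, and 4.5% had an unadjusted p under 0.05. In the pairwise comparisons that follow, DESeq2 and limma-voom also called 0 of 10 members each.

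The comparison of homozygous with wild-type rats asked what loss of both copies of Lrap did to these genes. No member was called, and none had an unadjusted p under 0.05 (edgeR quasi-likelihood, adjusted p = 0.555 to 0.985). Among all tested loci, 0% were called in this comparison and 9.13% had an unadjusted p under 0.05. The log2 fold change was below 0 for 9 of 10 members, against 55.7% of all loci, with a median of -0.40 among the members, -0.07 among all tested loci and 0.14 among the 15204 tested loci with a gene symbol. The lowest was Kcnj13, the potassium channel, at 5.46 ± 1.39 CPM in homozygous and 8.73 ± 4.88 CPM in wild-type rats (SD, n = 3 each), a log2 fold change of -0.67 with a 95% interval of -1.41 to 0.07. Without wild-type rat 2 that value was -0.16, and without wild-type rat 1 it was -0.99. Ttr, at 295 ± 79.7 CPM in homozygous and 316 ± 141 CPM in wild-type rats, had a log2 fold change of -0.10 with an interval of -0.72 to 0.53, and Otx2, the 1 member above 0, had 0.13 with an interval of -0.52 to 0.79. The groups overlapped for all 10 members, whereas 13.4% of all loci did not overlap. The 95% intervals here and below use a normal approximation, so they are narrower than the edgeR test with 3 rats a genotype allows.

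The direction rested on wild-type rat 2. Without it the members' median log2 fold change was 0.04, with 5 of 10 below 0, and without wild-type rat 1 it was -0.69, with 10 of 10 below 0 and 6 at an unadjusted p under 0.05, none of them called. The spike-in pattern holds the homozygous rats together with wild-type rat 2 only, so a fit with that pattern as a covariate compares them in effect with that 1 rat. It gave a median of -0.91 and called 1 member, Prlr (log2 fold change -1.21, edgeR adjusted p = 0.0435), while it called 2189 of all loci. The spike-in pattern and the genotype cannot be told apart in this comparison beyond that 1 library.

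The scale moved the values as well. In the deposited TPM, which is not rescaled for the abundant RNAs of a library, the median log2 difference of all tested loci between homozygous and wild-type rats was -0.59, and that of the members was -1.07, with 10 of 10 lower. Relative to all loci, the members' shift was therefore -0.48 by TPM and -0.26 by mean log2 CPM, where it was -0.29 for the members and -0.04 for all loci.

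Heterozygous rats were compared with wild type to ask whether loss of 1 copy was enough. Again 0 of 10 members were called and 0 had an unadjusted p under 0.05 (edgeR quasi-likelihood, adjusted p = 0.981 to 0.994), against 0.00768% of all loci called and 3.73% at the unadjusted threshold. The log2 fold change was below 0 for 9 members, against 54.9% of all loci, and the median was -0.39, against -0.04 among all tested loci and 0.08 among those with a gene symbol. Prlr had the lowest value, at 5.42 ± 1.01 CPM in heterozygous and 8.64 ± 5.02 CPM in wild-type rats (SD, n = 3 each). Its log2 fold change was -0.67, with an approximate 95% interval of -1.36 to 0.01 and an unadjusted edgeR p of 0.0776. Without wild-type rat 2 it was -0.10, and without wild-type rat 1 it was -0.94. Otx2 had the highest, at 3.91 ± 1.36 CPM in heterozygous and 2.68 ± 0.933 CPM in wild-type rats, a log2 fold change of 0.54 with an interval of -0.11 to 1.19. Without wild-type rat 1 the members' median was -0.68, with 9 of 10 below 0 and 6 at an unadjusted p under 0.05, none of them called, and without heterozygous rat 3 it was -0.56. Without wild-type rat 2 it was -0.01 with 5 of 10 below 0, and the fit with the spike-in pattern as a covariate gave the same median, since the heterozygous rats and wild-type rats 1 and 3 share a pattern. The groups overlapped for all 10 members, against 6.5% of all loci that did not overlap. Both mutant genotypes were set against the same 3 wild-type rats.

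Homozygous rats were also compared with heterozygous rats. No member was called and 0 had an unadjusted p under 0.05 (edgeR quasi-likelihood, adjusted p = 1 for all 10), against 0.00256% of all loci called and 1.71% at the unadjusted threshold. The log2 fold changes ran from -0.41 (Otx2, 95% interval -1.06 to 0.24) to 0.25 (Aqp1, interval -0.40 to 0.90), with a median of -0.02 and 6 of 10 below 0, against 49.3% of all loci. Ttr had 295 ± 79.7 CPM in the homozygotes and 293 ± 70.8 CPM in the heterozygotes (SD, n = 3 each). Its interval, -0.62 to 0.64 on the log2 scale, does not show that the genotypes were equal. Again the groups overlapped for all 10 members, and 8.83% of all loci did not overlap. All 3 homozygous rats have one spike-in pattern and all 3 heterozygous rats the other, so genotype and pattern cannot be told apart here. With the pattern as a covariate the members' median was -1.05, with 10 of 10 below 0. That fit takes the effect of the pattern from the wild-type rats alone, where only rat 2 has the pattern of the homozygotes.

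**Figure D3:**
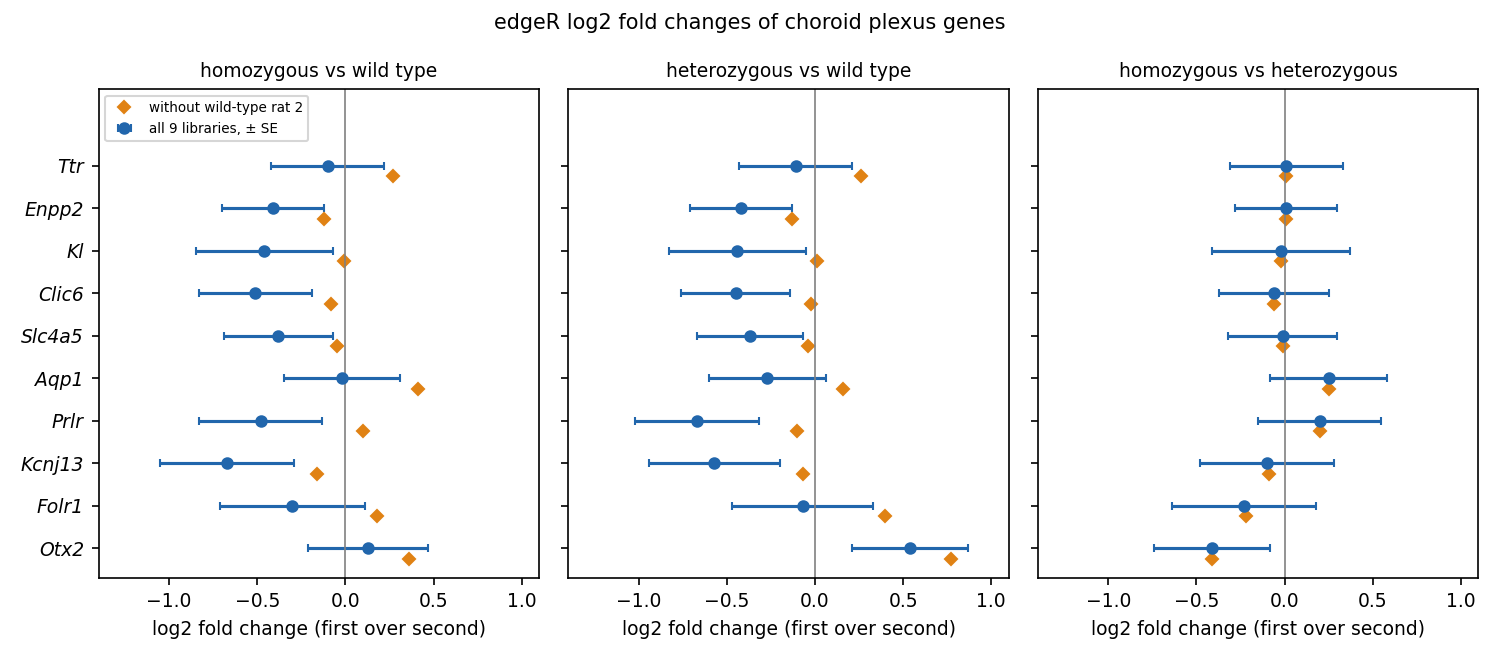
Log2 fold change (first genotype over second) of each gene in the 3 comparisons, as blue circles with the standard error from edgeR over all 9 libraries, and as orange diamonds without wild-type rat 2. Against wild type, 9 of 10 circles lie below 0 in both comparisons and 5 of 10 diamonds do, and no member was called in any comparison.

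The members moved together from library to library. Over the 9 libraries, Pearson's r of log2(CPM + 0.5) with Ttr was 0.95 for Kl, 0.94 for Folr1, 0.93 for Slc4a5, 0.92 for Aqp1, 0.90 for Kcnj13, 0.89 for Enpp2, 0.87 for Clic6, 0.84 for Prlr and 0.76 for Otx2. Spearman's rho was 0.80 (Otx2) to 0.97 (Aqp1). The exact permutation p over all 362880 pairings of libraries was 0.000135 (Folr1) to 0.0169 (Otx2), two-sided. After Benjamini-Hochberg adjustment over the 39056 loci correlated with Ttr, the exact p was 0.389 (Kl, Folr1, Slc4a5 and Aqp1) to 0.726 (Otx2), so no member passed, and neither did any other locus, the lowest adjusted p of all being 0.108. At an unadjusted p under 0.05, 9 of 9 members were positively correlated with Ttr, against 3.18% of all loci.

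Ranked by r with Ttr among all 39056 loci, Kl was number 5, Folr1 15, Slc4a5 21, Aqp1 36, Kcnj13 63, Enpp2 75, Clic6 122, Prlr 215 and Otx2 544. The top 1% of loci began at r = 0.80, and 8 of the 9 lay in it. Wild-type rat 1 and homozygous rat 1 were the libraries farthest from the median of Ttr. Without both, r was 0.82 (Enpp2) to 0.94 (Aqp1) for 8 members and 0.45 for Otx2 (exact permutation p = 0.304), so the relation of Otx2 with Ttr was no longer detectable over those 7 libraries. Without heterozygous rat 2 alone, r of Otx2 with Ttr was 0.87.

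The co-variation was also present within the genotypes. After each gene's genotype mean was subtracted, r with Ttr was 0.89 (Otx2) to 0.98 (Kl, Kcnj13 and Slc4a5), and after the mean of each spike-in pattern was subtracted it was 0.82 (Otx2 and Prlr) to 0.96 (Folr1). In the deposited TPM it was 0.86 (Otx2) to 0.99 (Kl). The part of the TPM scale in these values was not tested. Leaving out any 1 library gave an r of at least 0.61 for Otx2 and at least 0.82 for the other 8.

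Over all 45 pairs of members, r had a median of 0.88 and ran from 0.39 (Otx2 and Prlr) to 0.99 (Kl and Slc4a5). The median over all pairs of 15204 tested loci with a gene symbol was 0.32. Kl, Slc4a5, Enpp2, Clic6 and Kcnj13, named together after their values were seen, were correlated with each other at 0.94 to 0.99. Otx2 was a member of 9 of the 10 pairs with an r below 0.8, and its highest r with any member was 0.76, with Ttr. The other low pair was Enpp2 and Aqp1, at 0.77. After the genotype means were subtracted the median over pairs of members was 0.93 and the lowest 0.77. The median over all symbol pairs was not computed after that subtraction, so the 0.32 above is no measure for it.

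**Figure D4:**
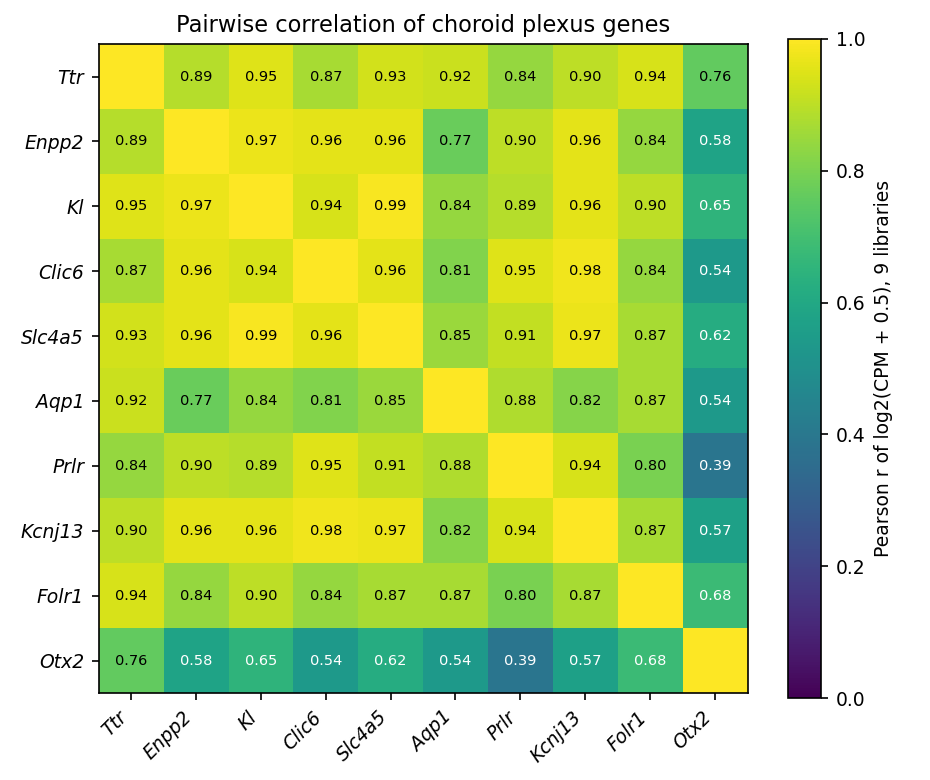
Pearson's r of log2(CPM + 0.5) over the 9 libraries for each pair of the 10 genes. The block without Otx2 runs from 0.77 to 0.99, and the row of Otx2 from 0.39 to 0.76.

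The size of the swing differed somewhat between members. For each unit of log2 Ttr, log2 Kl moved by 1.20, Folr1 by 1.11 and Kcnj13 by 1.08, whereas Enpp2 moved by 0.88 and Otx2 by 0.72. Relative to Ttr, Kcnj13, Prlr and Clic6 were highest in wild-type rat 2, by 0.53, 0.48 and 0.35 on the log2 scale above their median ratio. Kl, Slc4a5 and Enpp2 were highest relative to Ttr in wild-type rat 3, by 0.39, 0.31 and 0.32. The log2 ratio to Ttr had an SD of 0.16 (Slc4a5) to 0.30 (Otx2).

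The 10 gene-symbol loci outside the members whose pattern was most like Ttr had an r of 0.94 to 0.96 over the 9 libraries (exact permutation p = 3.31e-05 to 0.00038, adjusted p = 0.389 for each over 39056 loci). They were Mfrp, Msx1, Clec2g, Gabarap, F5, Calml4, Spg21, LOC500877, LOC654482 and Mien1. Mfrp, a membrane frizzled-related protein, ran from 13.3 to 27.4 CPM, Msx1, a homeodomain transcription factor, from 1.63 to 3.66 CPM, and F5, coagulation factor V, from 3.22 to 12.7 CPM. For each of Mfrp, Msx1, Clec2g and F5 the highest library was wild-type rat 2. Gabarap, an autophagy protein of all cells, had a narrower range of 37.4 to 52.1 CPM.

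Other genes of choroid plexus function were taken from 4 lists of 12 genes, 48 in all, of which 43 were tested. The lists were chosen with earlier results of these data known. They include Mfrp, Msx1, F5 and Calml4, named above as most like Ttr, so the counts below are not separate observations from those. None of the 43 was called in any comparison (edgeR quasi-likelihood). At r of at least 0.7 with Ttr were 18 of the 43, against 2.5% of all loci, and the median r of the lists was 0.58 for secreted and matrix genes, 0.48 for ion and water transport, 0.60 for solute and metal transporters and 0.74 for epithelial identity. Wild-type rat 2 was the highest library for 13 of the 43 and the lowest for 7, wild-type rat 3 and heterozygous rat 3 were the highest for 10 each, and homozygous rat 1 or wild-type rat 1 was the lowest for 28. In homozygous against wild-type rats the log2 fold change was above 0 for 22 of the 43 and below 0 for 21, with list medians of -0.08 (secreted and matrix), 0.09 (ion and water transport), 0.02 (solute and metal transporters) and -0.06 (epithelial identity). Many genes of these lists are also made elsewhere in the brain, as is Slc12a2, so that their whole-brain level is not one of the choroid plexus alone.

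Among the list genes of smallest p, several had a high r with Ttr. Cldn2, the claudin of the leaky junctions of this epithelium, had an r with Ttr of 0.93, and averaged 7.42 ± 1.77 CPM in homozygous and 10.9 ± 7.22 CPM in wild-type rats (SD, n = 3 each). Its log2 fold change was -0.55 ± 0.42 (SE, edgeR adjusted p = 0.635). Tmem72, a membrane protein, had an r of 0.93, Steap1, a metalloreductase, 0.92, and Sostdc1, a secreted inhibitor of BMP and Wnt signalling, 0.91. Sostdc1 averaged 4.38 ± 1.12 CPM in homozygous, 4.37 ± 1.06 CPM in heterozygous and 6.56 ± 4.88 CPM in wild-type rats.

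Others among the list genes of smallest p had log2 fold changes above 0, without a call. Igfbp2, an insulin-like growth factor binding protein also made by glia and meninges, was at 27.1, 27.9 and 37.5 CPM in homozygous and at 15.5, 24.4 and 21.9 CPM in wild-type rats. The groups did not overlap, and the log2 fold change was 0.58 ± 0.22 (SE, edgeR adjusted p = 0.544). Slc4a2, an anion exchanger of the basolateral membrane, was at 27.2 ± 2.55 CPM in homozygous and 18.8 ± 3.5 CPM in wild-type rats (SD, n = 3 each), a log2 fold change of 0.53 ± 0.19 (SE, edgeR adjusted p = 0.544). Col8a2, a collagen chain, had 0.65 ± 0.28 (SE, edgeR adjusted p = 0.544). The groups of Col8a2, Slc4a2 and Trpv4, another list gene, did not overlap in this comparison either. Of all loci, 13.4% did not overlap here, and the number among the 43 list genes was not counted. Igf2, a growth factor of choroid plexus and meninges, was at 92.3 ± 13.7 CPM in heterozygous and 67.5 ± 14.2 CPM in wild-type rats, a log2 fold change of 0.45 ± 0.20 (SE, edgeR adjusted p = 0.981). Its groups did not overlap in that comparison, as for 6.5% of all loci. Meningeal markers summed to 101 to 140 CPM in homozygous, 107 to 240 CPM in heterozygous and 72.8 to 101 CPM in wild-type rats, over 8 measured genes of a list of 9, and their part in these differences was not tested.

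Whether the spread followed other sampled tissue was examined with marker lists of 11 tissues and cell types. Ependyma, the ciliated lining of the ventricles next to the choroid plexus, had the highest r with Ttr over the 9 libraries. Its 7 measured markers summed to 11.5, 16.3 and 18 CPM in homozygous rats 1 to 3, to 12, 16 and 18.7 CPM in heterozygous rats and to 10.4, 14.4 and 15.8 CPM in wild-type rats. The number 1 rats were again the lowest of each genotype, but wild-type rat 2, the highest for Ttr, was not the highest for ependyma. The mean log2 level of the ependymal markers had an r with Ttr of 0.85 and a rho of 0.73 (exact permutation p = 0.00552 and 0.0311, Benjamini-Hochberg adjusted over 11 lists 0.0607 and 0.342). Without wild-type rat 1 and homozygous rat 1 r was 0.66 for ependyma (exact permutation p = 0.126), below the 0.73 of blood (exact permutation p = 0.0504), and in the deposited TPM with all 9 libraries it was 0.91 for ependyma (exact permutation p = 0.00104, adjusted 0.0115).

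By CPM, ependyma therefore missed the adjusted threshold, as did the other 10 lists, whose adjusted exact permutation p was 0.582 to 0.929. The r with Ttr was -0.03 for cerebellum, -0.44 for hypothalamus, 0.43 for pineal gland, -0.11 for pituitary, 0.11 for meninges, -0.36 for endothelium, 0.20 for blood, -0.36 for oligodendrocytes, 0.34 for hippocampus and -0.57 for striatum. Of the pineal list only 2 of 7 genes were tested, and Asmt, Aanat, Crx, Gngt1 and Sag were at 0 in some library. Of the pituitary list 3 of 6 were tested, and Prl, Gh1 and Tshb were at 0 in some library. Cerebellar markers differed widely between libraries, at 403, 36.5 and 304 in homozygous, 120, 159 and 228 in heterozygous and 38.7, 36.9 and 496 in wild-type rats, in summed CPM, so that wild-type rat 2, the highest for Ttr, was among the lowest for cerebellum. After the mean of each spike-in pattern was subtracted, r with Ttr was 0.87 for ependyma and 0.03 for cerebellum. Within the patterns of 5 and 4 libraries, too few for a test, r was 0.97 and 0.78 for ependyma. It was of opposite sign in the patterns of 5 and 4 libraries for cerebellum (0.88 and -0.63), endothelium (0.98 and -0.80) and meninges (0.81 and -0.51). The same held for oligodendrocytes (0.55 and -0.66) and hypothalamus (0.21 and -0.63).

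Wild-type rat 2, in which 9 of 10 members were highest, also had the highest sum of 5 measured blood markers of a list of 6, 365 CPM, against 112 to 144 CPM in homozygous, 94 to 195 CPM in heterozygous and 143 and 238 CPM in the other wild-type rats. It had the lowest sums of hypothalamic (10 CPM), striatal (95.6 CPM), endothelial (86.5 CPM), oligodendrocyte (2645 CPM), meningeal (72.8 CPM) and pituitary (0.182 CPM) markers. The pituitary sum rests on few reads, and it was nearly as low in homozygous rat 1 (0.353 CPM). The part of these tissues and of the mitochondrial share in the members' levels in wild-type rat 2 was not tested. Across the 9 libraries, the mitochondrial share had an r of 0.36 with Ttr (rho 0.05, exact permutation p = 0.348 and 0.912, adjusted p = 0.522 over 3 measures), and the total of expected counts 0.41 (rho 0.45, exact permutation p = 0.271 and 0.23, adjusted 0.522).

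Otx2 departed from the other members in the libraries with the most pineal marker RNA. Otx2 is also a gene of the pineal gland and the retina. Its level was 1.14, 0.919 and 0.971% of that of Ttr, both in CPM, in homozygous rats 1 to 3, 1.04, 1.6 and 1.31% in heterozygous rats and 0.943, 0.758 and 0.929% in wild-type rats. Pineal markers summed to 0.573, 0.42 and 7.45 CPM in homozygous, 1.49, 96.8 and 101 CPM in heterozygous and 0.28, 4.02 and 1.65 CPM in wild-type rats. Heterozygous rats 2 and 3 were the highest in both. Crx, a homeodomain factor of pineal and retina, was at 0.805 and 0.89 CPM in these rats and at 0 to 0.0219 CPM in the other 7. The part of pineal RNA in the level of Otx2 was not tested.

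**Figure D5:**
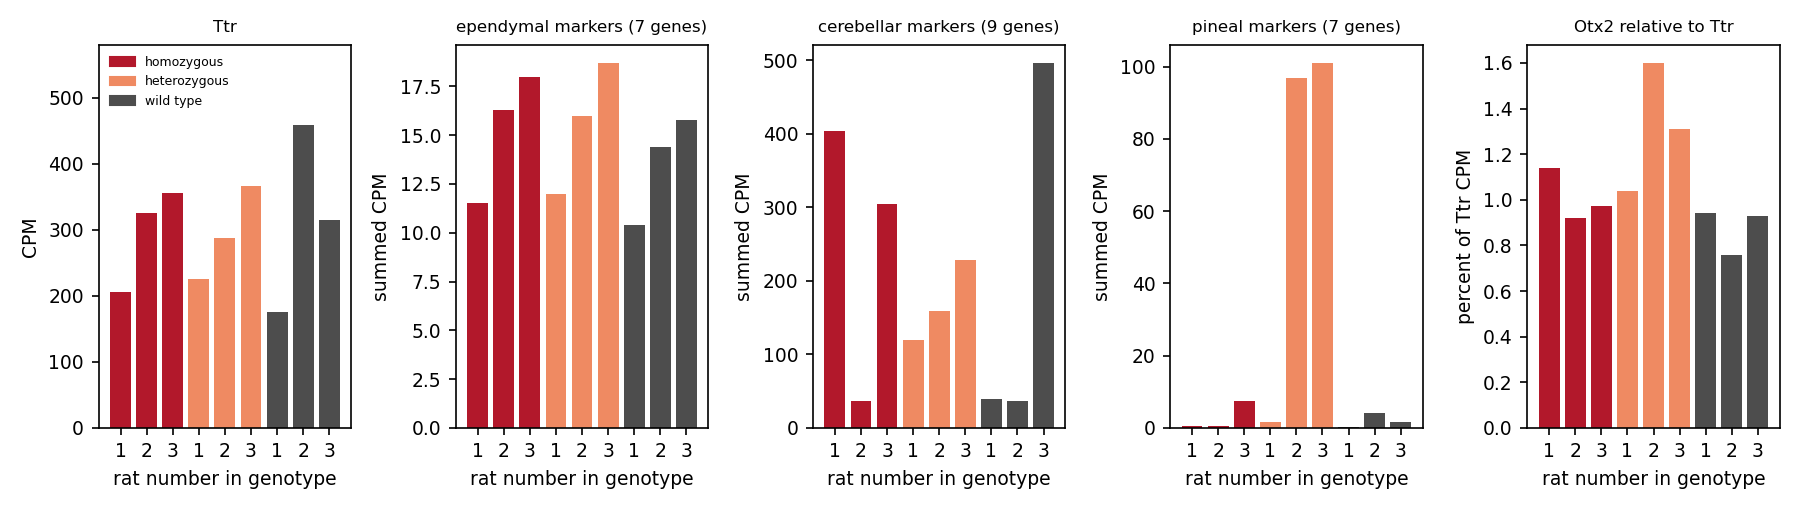
Ttr, the summed markers of ependyma, cerebellum and pineal gland (all in CPM), and Otx2 as a percent of Ttr, in each of the 9 libraries, by genotype and rat number. Ependyma is lowest in the number 1 rat of each genotype, as Ttr is, cerebellum shows another order, and pineal markers and the Otx2 percent are both highest in heterozygous rats 2 and 3.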

How the data were processed

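RNA of 9 whole brains was sequenced. Per the labels' protocols, libraries were stranded, depleted of ribosomal RNA, read as pairs and multiplexed on shared lanes. The submitters' processing notes name cutadapt, HISAT2, StringTie, RSEM and the build rn6; their versions, their order and whether strand was used in counting were not stated in any source at hand. What the authors deposited are expected counts from RSEM (estimated counts, not always whole), TPM per locus and the percent of each locus assigned to each isoform, for the loci of a merged assembly.

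Expected counts were rounded. Of 114601 loci, 39057 passed filterByExpr in edgeR 4.0.16 (R 4.3.3) and were tested, all 10 members among them. The 99 spike-in loci stayed out, and 40 with a mean count above 200 defined the spike-in patterns. TMM scaling and a quasi-likelihood fit (robust, legacy FALSE) over all 9 libraries gave fold changes first genotype over second, with Benjamini-Hochberg adjusted p over all tested loci and a threshold of 0.05; the common biological coefficient of variation was 0.277. Correlations used log2(CPM + 0.5) and exact permutation of all pairings, with numpy 2.4.6 and scipy 1.17.1. A marker list's level was the mean log2(CPM + 0.5) of its tested genes. Scripts were tested on simulated data. Alternatives were DESeq2 1.42.0, limma-voom (limma 3.58.1), a surrogate variable (sva 3.50.0), other scalings, filters and covariates, a replicate block, and leaving out each library.

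The members and lists were chosen with earlier results of these data known. All 10 members are named in every comparison, the 4 genes of smallest p in each comparison could be named from each of the 4 other lists, and the 10 symbol loci of highest r with Ttr are named. The labels call the libraries separate rats. With 3 rats a genotype an exact permutation test of 1 gene cannot give a p below 0.1, so the model over all loci was used.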

Additional observations from a re-analysis of the deposited data

How the results depend on the processing

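No member was called in any comparison under any of the alternatives run, except that with the spike-in pattern as a covariate 1 member, Prlr, was called in homozygous against wild-type rats. Leaving out any 1 library called 0 members in each comparison and in the test of any genotype difference. Over all alternatives, 511 member fold changes kept their direction, 58 reversed and 1 became a call, and 159 of 159 correlations of members with Ttr kept their direction and none was called. The lowest count behind a member's value was 53, for Folr1 and Otx2 in homozygous rat 1. The cause of the changes of sign was not tested.

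In homozygous against wild-type rats, log2 fold changes reversed for Otx2 with the spike-in covariate (-0.24), for Ttr with a surrogate variable (0.05), and for Aqp1 with DESeq2 size factors (0.02), no filter (0.05), DESeq2 (0.02), limma-voom (0.06) and a surrogate variable (0.19). In heterozygous against wild-type rats they reversed with the spike-in covariate for Kl (0.01), Ttr (0.26), Aqp1 (0.16) and Folr1 (0.40), and for Folr1 also with no filter (0.02), limma-voom (0.03) and the replicate block (0.04). In homozygous against heterozygous rats they reversed with the spike-in covariate for Ttr (-0.89), Prlr (-1.11), Aqp1 (-0.78) and Enpp2 (-0.73), with a surrogate variable for Kcnj13 (0.03), Kl (0.08) and Slc4a5 (0.04), with no filter for Ttr (-0.02) and Enpp2 (-0.02), with an effective length offset for Prlr (-0.10) and Enpp2 (-0.01), with the replicate block for Ttr (-0.01), with limma-voom for Slc4a5 (0.03) and with the compared groups only for Enpp2 (-0.01).

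Leaving out 1 library at a time, the log2 fold changes that crossed 0 in homozygous against wild-type rats ran from -0.12 to 0.36 for Otx2, -0.38 to 0.27 for Ttr, -0.76 to 0.10 for Prlr, -0.24 to 0.41 for Aqp1 and -0.61 to 0.18 for Folr1. In heterozygous against wild-type rats they ran from -0.79 to 0.01 for Kl, -0.38 to 0.26 for Ttr, -0.55 to 0.16 for Aqp1 and -0.37 to 0.40 for Folr1. In homozygous against heterozygous rats they ran from -0.31 to 0.09 for Kcnj13, -0.23 to 0.14 for Clic6, -0.20 to 0.16 for Kl, -0.17 to 0.21 for Ttr, -0.19 to 0.19 for Slc4a5, -0.51 to 0.05 for Folr1 and -0.21 to 0.15 for Enpp2.

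Rats of the same number were not treated as pairs, since the correlation of their deviations from the genotype means over all loci was not over 0.1 in every pair: it was -0.176 to 0.401 over the 9 pairs, and 0.272 to 0.401 for the 3 pairs of number 3. The replicate block, which fits the rat number, called 0 members in each comparison (1 member at an unadjusted p under 0.05 in each comparison with wild type), and 1, 3 and 2 of all loci in homozygous against wild type, heterozygous against wild type and homozygous against heterozygous, where the fit without it called 0, 3 and 1. DESeq2 called 33, 18 and 6 of all loci in the same comparisons and limma-voom 0, 2 and 2.

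With the deposited TPM 1 marker list, ependyma, passed against Ttr, where CPM passed 0. With TPM, r with Ttr turned to 0.26 for endothelium, 0.33 for oligodendrocytes and 0.22 for striatum, and without wild-type rat 1 and homozygous rat 1 it turned to -0.21 for meninges.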

Other observations

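The deposited assembly splits both Enpp2 and Prlr. The second Enpp2 locus, chr7:94543589-94563204 in rn6, was at 30, 33.4 and 44.5 CPM in homozygous rats 1 to 3, 26.4, 33.3 and 40 CPM in heterozygous rats and 22.9, 58.8 and 41.5 CPM in wild-type rats. It was not among the 10 members, and it had the same lowest and highest libraries as the Enpp2 locus that was, wild-type rats 1 and 2, with an r of 0.96 between the loci over the 9 libraries. The second Prlr locus, chr2:60131683-60286120, was at 0.302 to 1.17 CPM, also highest in wild-type rat 2 but lowest in heterozygous rat 2. Its r over the 9 libraries was 0.80 with the Prlr locus among the members and 0.46 with Ttr.

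Isoform shares were not tested between genotypes. For Prlr, the shorter of its 2 isoforms was listed at 0% in all 3 homozygous rats, at 0%, 38.51% and 10.26% in heterozygous rats 1 to 3 and at 11.35%, 18.01% and 11.96% in wild-type rats, so that homozygous and wild-type rats did not overlap. These are shares of TPM, and this isoform has 914 bases against 8043, so its share of the reads is smaller. The whole locus had 109, 257 and 309 counts in homozygous and 187, 552 and 274 in wild-type rats. Few reads therefore lie behind these shares, and how many isoforms of all loci do not overlap was not counted. Of the members with several isoforms, the others overlapped between these genotypes in the share of their main isoform. For Kl, the Klotho gene, the isoform that starts at base 973179 of chromosome 12 and lacks the first part of the locus made up 78.8 ± 8.76% of its TPM in homozygous, 88.4 ± 3.16% in heterozygous and 88.9 ± 5.25% in wild-type rats (SD, n = 3 each). The longest-spanning isoform, which matches the annotated transcript, made up 5.25% to 31.19% across the 9 rats, highest in homozygous rat 1 and lowest in wild-type rat 2. For Otx2, the isoform of 5 exons made up 83.3 ± 7.61% in homozygous, 79.7 ± 3.18% in heterozygous and 77.6 ± 18.7% in wild-type rats, with 56.16% in wild-type rat 3 alone. For Slc4a5, the main isoform made up 71.3 ± 12.4% in homozygous, 56.3 ± 4.34% in heterozygous and 64.4 ± 12.5% in wild-type rats. For Enpp2, whose 4 isoforms rest on the most reads, the main isoform was steady, at 60.34% to 67.96% over all 9 rats.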
